A study of Mus musculus with 34 samples.

Results

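A pair of histone marks, trimethylation of lysine 4 of histone H3 (H3K4me3) and acetylation of lysine 27 of histone H3 (H3K27ac), were compared in microglia of the hippocampus from growth-restricted mice, named FGR in the labels. All 4 H3K4me3 libraries and all 4 H3K27ac libraries labelled FGR were taken, 8 of the 34 samples of the series, of which 32 have a peak list. Every group carried the genotype Tmem119-tdTomato+/-, a fluorescent reporter of microglia. The labels give an age of postpartum 3 weeks for replicates 1 to 3 and no age for replicate 4. They say neither how growth restriction was produced nor whether replicates came from separate animals or from pools, so each p-value speaks of the spread among these 8 libraries and that spread may be technical. Peak names inside the list of FGR H3K4me3 replicate 4 carry the number 5. It was taken as replicate 4 by its label, and without it 11010 genes were longer for H3K4me3 and 583 for H3K27ac in the comparison of gene ends given further on, against 11333 and 707 with it. The assay was ULI-NChIP-seq, a chromatin immunoprecipitation of unfixed chromatin for small numbers of cells. The series asked how growth restriction in the uterus affects 4 histone marks in these cells. The comparison here lies within growth-restricted microglia and asks where both marks were called together and where 1 was called without the other.

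H3K4me3 is laid down by the SET1 and MLL (Kmt2) enzymes and lies over the starts of genes, above all where the DNA is rich in the dinucleotide CG. H3K27ac is laid down by p300 and CBP and lies at active starts and at active enhancers. Starts that carry H3K4me3 without acetylation include those of developmental regulators that Polycomb proteins hold silent through H3K27me3, a mark that was not measured here. In microglia, PU.1 (Spi1), Irf8 and Sall1 are regulators of identity, and P2ry12, Tmem119, Cx3cr1 and Csf1r are genes by which these cells are known.

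The sequences below show the promoters of genes from each class described further on, chosen to show starts that carried both marks or either mark alone. Each runs 5′ to 3′ along the gene's own strand from 250 bases before to 50 bases after a start in the RefSeq promoter table (GRCm38.p6), in lower case with every CG in capitals. P2ry12, the purinergic receptor of resting microglia (chr3:59262936-59263235, minus strand), and Atp6v0c, a subunit of the vacuolar proton pump (chr17:24169629-24169928, minus strand), had peaks of both marks over the printed stretch in all 8 libraries. Ankrd34a, an ankyrin repeat gene (chr3:96596386-96596685, plus strand), and Adm, which encodes the vasodilator peptide adrenomedullin (chr7:110627407-110627706, plus strand), had H3K4me3 peaks there in 4 of 4 libraries and H3K27ac peaks in 0 of 4. Pirb, an inhibitory receptor of myeloid cells (chr7:3720333-3720632, minus strand), had the reverse, with H3K4me3 peaks in 0 of 4 libraries and H3K27ac peaks in 4 of 4. It was picked after its values were seen, because the genes that the naming rule gives for this class, Tbc1d5 and Zfp217, have table starts 1847 and 9002 bp away from the gene's 5′ end. Over the start of Tbc1d5 both marks had peaks in 4 of 4 libraries. Over that of Zfp217 each mark had peaks in 0 of 4. Pirb is thus an example and does not stand for its class. The printed start of Ankrd34a lies 708 bp from that gene's 5′ end.
P2ry12: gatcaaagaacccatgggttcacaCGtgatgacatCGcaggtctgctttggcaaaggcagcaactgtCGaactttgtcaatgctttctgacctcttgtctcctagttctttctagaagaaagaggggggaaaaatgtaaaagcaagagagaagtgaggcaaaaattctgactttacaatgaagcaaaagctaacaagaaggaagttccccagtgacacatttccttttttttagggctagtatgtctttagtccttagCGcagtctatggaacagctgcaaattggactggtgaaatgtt
Atp6v0c: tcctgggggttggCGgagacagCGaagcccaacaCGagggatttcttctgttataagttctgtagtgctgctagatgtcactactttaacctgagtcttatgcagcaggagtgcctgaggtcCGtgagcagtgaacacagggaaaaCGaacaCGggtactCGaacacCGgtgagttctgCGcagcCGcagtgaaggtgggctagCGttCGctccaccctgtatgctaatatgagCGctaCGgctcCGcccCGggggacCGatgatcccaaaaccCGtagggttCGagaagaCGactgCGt
Ankrd34a: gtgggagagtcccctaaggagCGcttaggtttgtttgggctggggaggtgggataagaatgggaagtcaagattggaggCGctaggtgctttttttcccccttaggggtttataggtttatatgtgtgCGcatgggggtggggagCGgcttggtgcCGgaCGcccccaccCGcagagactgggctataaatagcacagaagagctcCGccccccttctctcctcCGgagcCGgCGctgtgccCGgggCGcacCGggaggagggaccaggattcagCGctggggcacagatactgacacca
Adm: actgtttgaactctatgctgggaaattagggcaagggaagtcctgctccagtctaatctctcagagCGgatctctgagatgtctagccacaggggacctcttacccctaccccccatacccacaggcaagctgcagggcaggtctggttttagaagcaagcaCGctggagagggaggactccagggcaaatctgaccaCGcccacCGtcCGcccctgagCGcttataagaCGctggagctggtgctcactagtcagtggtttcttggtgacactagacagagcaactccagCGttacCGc
Pirb: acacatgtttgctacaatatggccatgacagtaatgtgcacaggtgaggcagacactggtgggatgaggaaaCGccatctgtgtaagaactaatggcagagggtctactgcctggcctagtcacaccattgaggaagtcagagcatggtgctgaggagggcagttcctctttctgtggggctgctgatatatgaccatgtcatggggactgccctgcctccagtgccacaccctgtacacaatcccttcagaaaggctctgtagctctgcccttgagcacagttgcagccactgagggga

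These stretches held 4 CG in P2ry12, 21 in Atp6v0c, 15 in Ankrd34a, 9 in Adm and 1 in Pirb. The letters AGGAAGT, which contain the core that Ets factors such as PU.1 recognise, were searched on both strands and occurred in P2ry12 and in Pirb. They occurred in 9.30% of all 17274 promoters of protein-coding genes in the table. A match is a description of the letters alone. The table holds a promoter for 81.9% of the genes with both marks, for 75.6% of those with H3K4me3 alone and for 76.3% of those with H3K27ac alone, so a comparison of base composition between the classes is void.

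The lists raise a doubt about the labels that touches every result below. Across 16008 genes, covered length in the FGR H3K4me3 libraries correlated with the H3K9ac libraries of control mice (Ctrl, same reporter genotype) at a mean r of 0.876, with Ctrl H3K27ac at 0.785 and with Ctrl H3K4me3 at 0.765. With lists cut to 16551 peaks each, the mean r was 0.770 with Ctrl H3K9ac, 0.709 with Ctrl H3K4me3 and 0.638 with Ctrl H3K27ac. In those shortened lists, 10 to 11 of 40 developmental transcription factors had a peak at an end in FGR H3K4me3, 4 to 10 in FGR H3K9ac, 13 to 16 in Ctrl H3K4me3 and 0 in every Ctrl H3K9ac library. FGR H3K27ac libraries correlated best with Ctrl H3K27ac, at a mean r of 0.922. These points share the set of genes, and the Ctrl lists were called with another fragment setting, so they are given as a description. Whether H3K4me3 and H3K9ac labels were exchanged in FGR was not tested, and the values with the FGR H3K9ac libraries in place of the H3K4me3 ones are given at the end.

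The lists hold no read counts, and sequencing depth is unknown. The local background solved from each peak's fold and p, a relative measure of depth, had a median of 0.846 to 1.163 in the H3K4me3 libraries and 0.621 to 0.767 in the H3K27ac libraries. The groups did not overlap, and the part of this gap in the results was tested only through lists matched on background. The smallest peak width, which follows the fragment setting, was 148 to 150 bp for H3K4me3 and 148 to 151 bp for H3K27ac. Of 10 microglial markers, 9 had a peak at an end in every H3K4me3 library and 10 in every H3K27ac library. Of 11 neuronal markers, 3 had a peak in every H3K4me3 library and 0 in every H3K27ac library, with summed covered lengths of 2.155 to 4.199 kb and 0 to 0.364 kb. Snap25, Syt1, Nefl, Gad1, Gad2 and Camk2a had no peak in any of the 8 libraries, and neither did the astrocyte genes Gfap, Aqp4 and Slc1a2 or the oligodendrocyte genes Mag, Cspg4 and Sox10. Of the other cell types, all 4 H3K4me3 libraries had a peak at 3 of 7 markers of border-associated macrophages, 3 of 7 of astrocytes, 3 of 9 of the oligodendrocyte lineage, 4 of 7 of endothelial and mural cells and 3 of 9 of lymphocytes and neutrophils. The matching numbers for all 4 H3K27ac libraries were 2, 1, 2, 1 and 1.

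H3K4me3 was called in fewer and wider peaks than H3K27ac and lay more at gene ends. The H3K4me3 lists held 43989, 48922, 47328 and 43052 peaks, against 66670, 78063, 65573 and 53390 in the H3K27ac lists. The groups did not overlap (log2 difference of the means of -0.51 ± 0.12, SE, n = 4 each, two-sided exact permutation p = 0.0286, 0.0343 adjusted over 6 library measures by Benjamini-Hochberg). With 4 against 4 libraries, 0.0286 is the smallest p this test can give. Median peak width was 546, 540, 553 and 568 bp for H3K4me3 and 347, 314, 353 and 365 bp for H3K27ac, a difference of 207 ± 12.5 bp (SE, exact permutation p = 0.0286). Every H3K4me3 library had wider peaks than every H3K27ac library. With lists of equal length the difference in width was 104 bp. Total genome under peaks did not separate the marks, with 35.4, 39.8, 38.3 and 35.4 Mb for H3K4me3 and 36.4, 38.9, 37.0 and 29.8 Mb for H3K27ac (log2 difference 0.07 ± 0.09, SE, exact permutation p = 0.6). With every list cut to its 43052 strongest peaks, covered genome was higher for H3K4me3 by 0.31 on the log2 scale (exact permutation p = 0.0286).

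A gene end means here either end of a protein-coding gene, and a peak was counted at it if it lay within 1 kb. Peaks at gene ends made up 34.0, 30.9, 32.7 and 34.8% of the H3K4me3 lists and 24, 21.7, 24.1 and 26.9% of the H3K27ac lists (difference 8.94 ± 1.36 percentage points, SE, exact permutation p = 0.0286). The genes so marked numbered 13034, 13228, 13135 and 12989 for H3K4me3 and 10126, 10414, 10184 and 9506 for H3K27ac, out of 21631. All 4 H3K4me3 libraries lay above all 4 H3K27ac libraries in both measures. With lists of equal length the share of peaks at gene ends differed by 5.19 percentage points. Farther than 1 kb from any gene end the order turned round, with 16.3, 19.4, 18.4 and 16.3 Mb under H3K4me3 peaks and 26.6, 28.8, 26.8 and 21.4 Mb under H3K27ac peaks (log2 difference -0.55 ± 0.11, SE, exact permutation p = 0.0286). With lists of equal length the distal difference was -0.29 on the log2 scale. Leaving out any 1 H3K4me3 library raised the exact permutation p to 0.0571 for the number of peaks and for distal length, which ends those calls. The differences then stayed between -0.55 and -0.48 and between -0.60 and -0.52. Leaving out any 1 library of either mark gave -0.61 to -0.43 and -0.64 to -0.50.

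**Figure D1:**
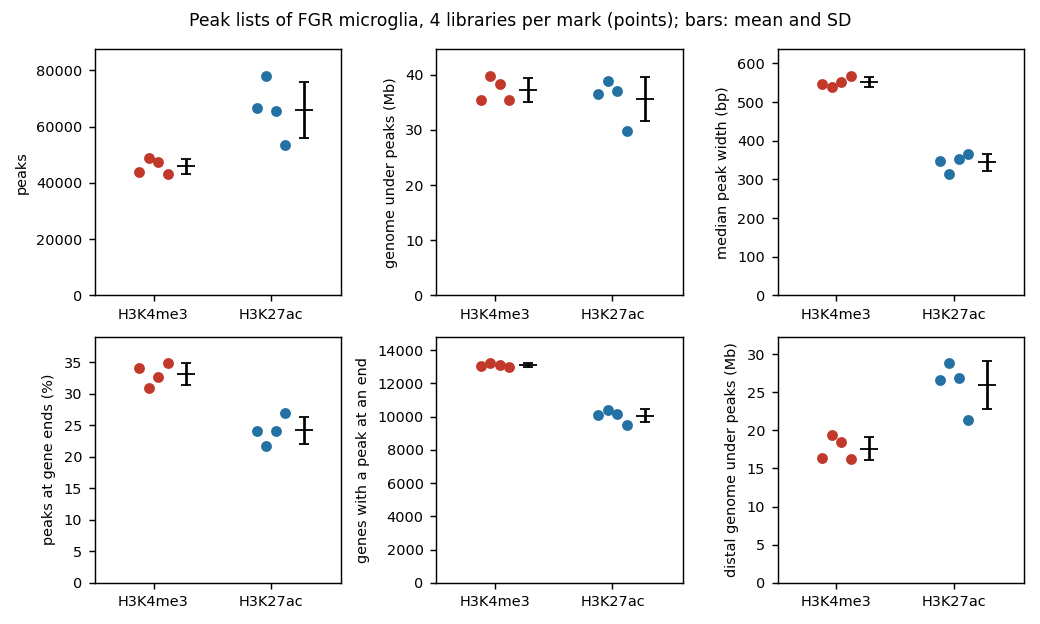
Measures of each peak list, 1 point per library, with H3K4me3 left of H3K27ac and the mean ± SD of 4 libraries beside the points; the axes give peaks, Mb, bp, percent or genes and start at 0. The groups do not overlap in peaks, peak width, percent of peaks at gene ends, genes with a peak or distal Mb, and they overlap in total Mb.

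Around the 5′ end of the 17274 genes whose strand is known, both marks were called on both sides of the start with a dip between them. H3K4me3 peaks covered 41.6 to 43.2% of genes at 0.25 kb before the start, 39.7 to 42% at 0.05 kb before it and 51.8 to 52.8% at 0.25 kb inside the gene, where they were most frequent. H3K27ac peaks covered 22.3 to 25.4%, 10.4 to 13.3% and, at their maximum 0.15 kb inside the gene, 27.9 to 31.8%. The dip before the start was thus shallow in the called H3K4me3 peaks and deep in the called H3K27ac peaks, in each of the 4 libraries of each mark. At 1.95 kb inside the gene the values were 9.47 to 10.5% for H3K4me3 and 4.86 to 6.16% for H3K27ac. At 1.95 kb before the start they were 2.74 to 3.13% and 2.35 to 3.26%, and there the ranges overlap.

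**Figure D2:**
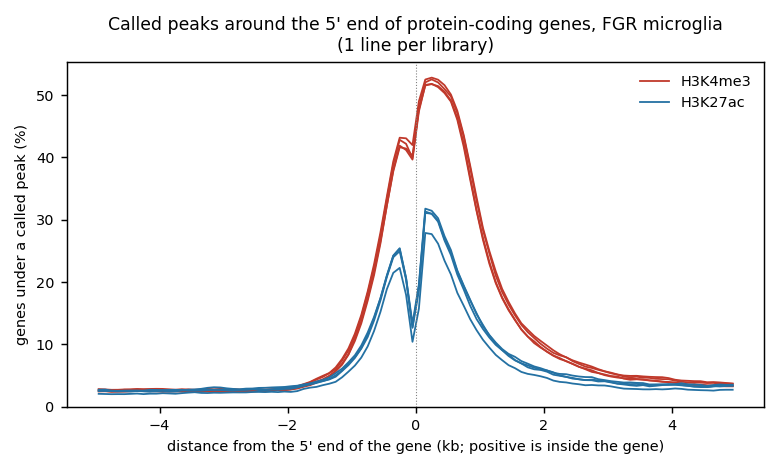
Share of 17274 protein-coding genes under a called peak (percent) by distance from the gene's 5′ end (kb, positive inside the gene), 1 line per library. All H3K4me3 lines reach 51.8 to 52.8% at 0.25 kb, all H3K27ac lines 27.9 to 31.8% at 0.15 kb, and the H3K27ac lines drop to 10.4 to 13.3% just before the start.

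Gene by gene, the marks were compared through covered length, meaning the summed kb under peaks in windows reaching 2.5 kb to each side of both gene ends, in 14323 genes with a peak in at least 2 of the 8 libraries. Covered length was longer for H3K4me3 in 11333 genes (79.1%) and longer for H3K27ac in 707 (4.94%) at a limma adjusted p under 0.05. The median difference over all genes tested was 0.716 kb. H3K4me3 thus covered more at most gene ends, and this excess depends on the scale. After quantile normalization, which gives every library the same distribution of lengths, the median difference was -0.05 kb and the calls were 4015 (28%) and 4890 (34.1%). The share of calls that were longer for H3K4me3 moved accordingly, at 94.1% before and 45.1% after. Each difference named below is on the deposited scale and should be read against the median of 0.716 kb. Where a named gene's call or sign differs after quantile normalization, that value stands beside it. Windows of neighbouring genes can overlap. Besides the genes marked so below, this held for Spi1, Mef2a, Csf1r, Tyrobp, Apoe, Cd74, Siglec1, Cd4, Kmt2a, Gapdh, Rpl7 and Ndufa1. The libraries of the marks did not overlap at 11248 genes (78.5%). Genes named for the largest differences, Irx5, Siglech and C5ar1 among them, were taken only from called genes without overlap. Their lack of overlap and their calls thus came with the choice. Lists matched on background gave 11309 and 730 calls.

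**Figure D3:**
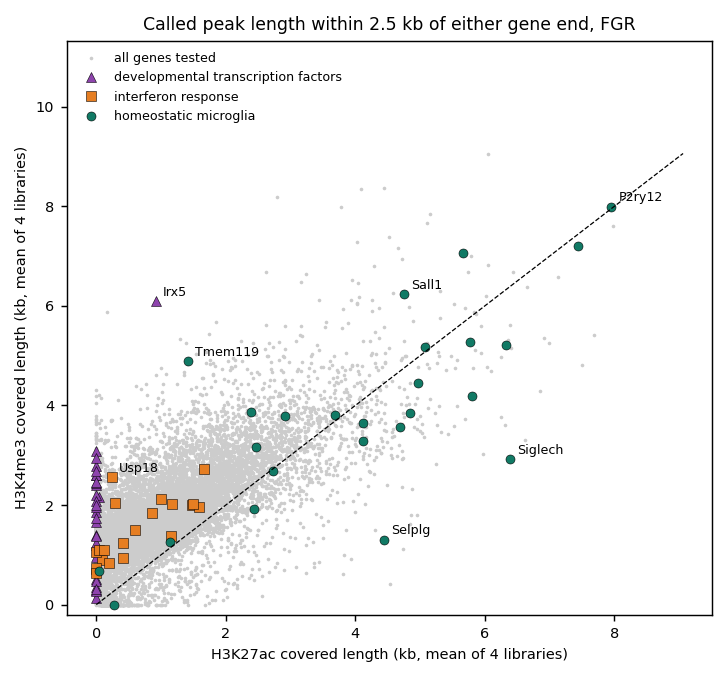
Covered length per gene in kb (mean of 4 libraries), H3K4me3 upwards and H3K27ac to the right, with all genes tested in grey, 3 lists in colour and the line of equal length dashed. Developmental transcription factors lie along the left edge apart from Irx5, interferon response genes lie above the line on this scale (3 of 20 are called longer for H3K4me3 and 3 for H3K27ac after quantile normalization), and homeostatic genes spread on both sides with P2ry12 on it.

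Classes of gene ends were set by presence: both marks in all 8 libraries, 1 mark in all 4 of its libraries and the other in none, or neither of these. Of 21631 genes, 8915 (41.2%) had both marks, 2205 (10.2%) had H3K4me3 alone and 59 (0.273%) had H3K27ac alone. A further 2675 were mixed and 7777 had no peak at an end in any of the libraries. With every list cut to the same number of peaks, 2824 had H3K4me3 alone and 25 H3K27ac alone, and at the 5′ end alone 1738 and 26. H3K27ac at a gene end without H3K4me3 was thus rarer than the opposite case in these 3 counts. Of the 59 genes in the deposited lists, 24 still had H3K4me3 in all 4 libraries within 2.5 kb, and 30 had none there. Of the 45 of them in the promoter table, 5 had H3K27ac peaks in 4 of 4 libraries, and H3K4me3 peaks in none, over an annotated start within 1 kb of the gene's 5′ end. Of the 2205 genes with H3K4me3 alone, 110 had H3K27ac in all 4 libraries within 2.5 kb and 1849 had none.

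Among the regulators of microglial identity, which mark covered more differed by gene. Maf, a leucine zipper transcription factor of macrophages that stands in the lists of microglial factors and of border-associated macrophages, had 8.35, 8.34, 8.4 and 8.39 kb in the H3K4me3 libraries, against 4.42, 3.92, 4.74 and 4.67 kb in the H3K27ac libraries. All H3K4me3 values lay above all H3K27ac values, with a difference of 3.93 ± 0.166 kb (SE, limma adjusted p = 2.09e-07). Sall1, the factor that marks microglia among brain macrophages, had 6.53, 6.28, 6.16 and 5.98 kb in the H3K4me3 libraries, against 4.76, 5.22, 4.57 and 4.47 kb in the H3K27ac libraries. The groups did not overlap, and the difference was 1.48 ± 0.18 kb (SE, limma adjusted p = 8.03e-05). Irf8 was longer for H3K4me3 by 0.963 ± 0.0894 kb (SE, limma adjusted p = 1.56e-05), with 3.27, 3.21, 3.27 and 3.18 kb in the H3K4me3 libraries, against 2.49, 2.27, 2.06 and 2.26 kb in the H3K27ac libraries; after quantile normalization it was 0.261 kb (limma adjusted p = 0.0824). Spi1, which encodes PU.1, went the other way, with 3.51, 4.07, 3.44 and 3.58 kb in the H3K4me3 libraries, against 4.36, 4.57, 4.41 and 4.51 kb in the H3K27ac libraries and a difference of -0.812 ± 0.137 kb (SE, limma adjusted p = 5.87e-04). Within 1 kb of the gene ends alone, Spi1 had a difference of 0.035 kb. Mef2a, a MADS box transcription factor, had 0.374, 0.331, 0.31 and 0.335 kb in the H3K4me3 libraries, against 1.84, 1.73, 1.46 and 1.16 kb in the H3K27ac libraries, without overlap and with short H3K4me3. Of the 30 microglial transcription factors, 20 were longer for H3K4me3, 5 longer for H3K27ac and 5 were not called, and after quantile normalization the numbers of calls were 16 and 9. The calls made up 79.1% and 4.94% of all genes tested, and 28% and 34.1% after quantile normalization. All 4 H3K4me3 and all 4 H3K27ac libraries had a peak at an end in 25 of these factors, and the other 5 were mixed. Both marks were present at 41.2% of all genes.

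The genes by which homeostatic microglia are known had long stretches of both marks. P2ry12 (chr3:59216271-59262985), whose promoter is printed above, was covered over 8.15, 8.0, 8.05 and 7.76 kb in the H3K4me3 libraries, against 7.95, 8.5, 7.96 and 7.39 kb in the H3K27ac libraries. The libraries overlapped and the difference was 0.0398 ± 0.211 kb (SE, limma adjusted p = 0.866), while after quantile normalization it was -0.67 kb (limma adjusted p = 0.00178). Tmem119, the gene named in the reporter allele of these mice, had 4.43, 5.93, 4.78 and 4.43 kb in the H3K4me3 libraries, against 2.1, 1.24, 1.44 and 0.856 kb in the H3K27ac libraries. It was longer for H3K4me3 in every library, by 3.48 ± 0.381 kb (SE, limma adjusted p = 4.23e-05). Cx3cr1, the fractalkine receptor, had 5.27, 5.28, 5.15 and 5.15 kb in the H3K4me3 libraries, against 6.43, 6.96, 6.05 and 5.88 kb in the H3K27ac libraries. It was longer for H3K27ac, with a difference of -1.12 ± 0.212 kb (SE, limma adjusted p = 0.00115), yet at its 5′ end alone the difference was 1.06 kb, longer for H3K4me3. Csf1r, the receptor that microglia need to survive, was also longer for H3K27ac, with 3.3, 3.96, 3.41 and 3.57 kb in the H3K4me3 libraries, against 4.28, 5.63, 4.12 and 4.74 kb in the H3K27ac libraries and a difference of -1.13 ± 0.32 kb (SE, limma adjusted p = 0.010). Siglech, a sialic acid receptor of microglia, had 2.89, 3.08, 2.96 and 2.78 kb in the H3K4me3 libraries, against 5.99, 7.22, 6.59 and 5.76 kb in the H3K27ac libraries. No library of the marks overlapped there, and the difference was -3.46 ± 0.29 kb (SE, limma adjusted p = 8.55e-06). Selplg, the ligand of P-selectin, lies beside Tmem119 on chromosome 5 and showed the opposite order, with 1.37, 1.22, 1.52 and 1.11 kb in the H3K4me3 libraries, against 4.32, 5.05, 4.59 and 3.83 kb in the H3K27ac libraries and a difference of -3.14 ± 0.236 kb (SE, limma adjusted p = 4.52e-06). At the ends of Selplg itself no H3K4me3 library had a peak within 1 kb and every H3K27ac library did. Of 25 homeostatic genes, 7 were longer for H3K4me3, 7 longer for H3K27ac and 11 were not called, against 79.1% and 4.94% of all genes tested. After quantile normalization 4 and 15 were called, against 28% and 34.1% of all genes tested. The medians were 3.82 kb for H3K4me3 and 4.45 kb for H3K27ac, against 1.58 kb and 0.749 kb over all genes tested. Both marks were present in all libraries at 21 of the 25, against 41.2% of all genes.

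Genes of the disease-associated state, which microglia enter near plaques and dying cells, divided by gene. Trem2, the lipid receptor that gates this state, had 3.33, 3.44, 3.57 and 3.65 kb in the H3K4me3 libraries, against 3.43, 3.91, 3.7 and 3.29 kb in the H3K27ac libraries. The libraries overlapped, with a difference of -0.0858 ± 0.141 kb (SE, limma adjusted p = 0.583) and of -0.61 kb (limma adjusted p = 0.00212) after quantile normalization. Its adaptor Tyrobp had 5.99, 6.63, 6.17 and 6.04 kb in the H3K4me3 libraries, against 6.2, 6.42, 6.09 and 5.38 kb in the H3K27ac libraries, also with overlap, and a difference of 0.186 ± 0.235 kb (SE, limma adjusted p = 0.474), which was -0.193 kb (limma adjusted p = 0.284) after quantile normalization. Apoe, a lipid carrier, averaged 2.63 ± 0.44 kb for H3K4me3 and 1.56 ± 0.63 kb for H3K27ac (SD, n = 4 each), with a difference of 1.07 ± 0.333 kb (SE, limma adjusted p = 0.0159), of 0.307 kb (limma adjusted p = 0.378) after quantile normalization and of -0.21 kb within 1 kb of the gene ends. Lpl, lipoprotein lipase, had 2.97, 2.97, 2.99 and 2.99 kb in the H3K4me3 libraries, against 0.769, 0.722, 0.97 and 0.387 kb in the H3K27ac libraries. It was longer for H3K4me3 in all libraries, by 2.27 ± 0.113 kb (SE, limma adjusted p = 4.56e-07). Itgax, which encodes CD11c, was the opposite case: no H3K4me3 peak was called in its window in any library, and H3K27ac covered 0.909, 0.779, 1.06 and 0.972 kb. Of 24 tested genes of this list 13 were longer for H3K4me3, 4 longer for H3K27ac and 7 were not called, and after quantile normalization 7 and 8 were called. Among all genes tested the shares were 79.1% and 4.94%, and 28% and 34.1% after quantile normalization.

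Inflammatory genes mostly carried both marks, which were present in all libraries at 21 of 28, against 41.2% of all genes. Of the other 7 members 1 had H3K4me3 alone, 1 had H3K27ac alone, 3 were mixed and 2 had no peak in any library. Il1b, the cytokine interleukin-1 beta (chr2:129364569-129371164), had 0, 0, 0.148 and 0 kb in the H3K4me3 libraries, against 1.45, 1.68, 1.91 and 1.91 kb in the H3K27ac libraries. Only replicate 3 of H3K4me3 had any peak there, and the difference was -1.7 ± 0.11 kb (SE, limma adjusted p = 1.87e-06). Il1a, Nlrp3, Ccl2, Il18, Cd14 and Rela were the other 6 members called longer for H3K27ac. Nfkbia, the inhibitor of NF-κB, stood at the other end with 4.69, 5.0, 4.93 and 4.01 kb in the H3K4me3 libraries, against 2.42, 2.67, 2.34 and 2.13 kb in the H3K27ac libraries and a difference of 2.27 ± 0.22 kb (SE, limma adjusted p = 2.05e-05). Tlr2, a receptor for bacterial lipoproteins, averaged 2.91 ± 0.147 kb for H3K4me3 and 3.29 ± 0.382 kb for H3K27ac (SD, n = 4 each), with a difference of -0.379 ± 0.181 kb (SE, limma adjusted p = 0.0804) and of -1.01 kb (limma adjusted p = 1.15e-04) after quantile normalization. Of 27 tested genes 14 were longer for H3K4me3, 7 longer for H3K27ac and 6 were not called, and after quantile normalization the calls were 5 and 16. For all genes tested these calls made up 79.1% and 4.94%, and 28% and 34.1% after quantile normalization.

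All 20 interferon response genes in the table were longer for H3K4me3, as were 79.1% of all genes tested. After quantile normalization only 3 were, with 3 longer for H3K27ac, against 28% and 34.1% of all genes tested. The medians of the list were 1.44 kb for H3K4me3 and 0.414 kb for H3K27ac. Its median difference was 0.834 kb, against 0.716 kb over all genes tested. Both marks were present in all libraries at 10 of the 20, against 41.2% of all genes. Usp18, a protease that removes ISG15 and damps interferon signalling, led the list with 2.37, 2.67, 2.54 and 2.66 kb in the H3K4me3 libraries, against 0.253, 0.373, 0.318 and 0 kb in the H3K27ac libraries. Every H3K4me3 library lay far above every H3K27ac library, with a difference of 2.32 ± 0.103 kb (SE, limma adjusted p = 2.53e-07).

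Genes of complement, phagocytosis and antigen presentation fell on both sides. C5ar1, the receptor for the complement fragment C5a, had 1.24, 2.1, 1.53 and 1.59 kb in the H3K4me3 libraries, against 4.78, 5.4, 4.6 and 4.59 kb in the H3K27ac libraries, without overlap and with a difference of -3.22 ± 0.229 kb (SE, limma adjusted p = 3.28e-06). Its window also holds C5ar2. Fcgr3, an activating Fc receptor, had 3.39, 4.1, 3.45 and 3.48 kb in the H3K4me3 libraries, against 1.53, 2.81, 2.13 and 1.36 kb in the H3K27ac libraries and a difference of 1.65 ± 0.32 kb (SE, limma adjusted p = 0.00133). Of 22 tested genes of complement and phagocytosis 11 were longer for H3K4me3 and 5 for H3K27ac, and after quantile normalization 4 and 10. Beside each list of this paragraph stand 79.1% and 4.94% of all genes tested, and 28% and 34.1% after quantile normalization. B2m, the light chain of class I molecules, had 5.61, 5.76, 6.0 and 5.38 kb in the H3K4me3 libraries, against 3.51, 3.38, 4.14 and 3.16 kb in the H3K27ac libraries, a difference of 2.14 ± 0.217 kb (SE, limma adjusted p = 2.70e-05). Cd74, the invariant chain of class II molecules, had 0.411, 0.149, 0 and 0.15 kb in the H3K4me3 libraries, against 2.6, 2.55, 2.46 and 2.62 kb in the H3K27ac libraries. The order was thus opposite at these 2 genes of antigen presentation, with Cd74 at -2.38 ± 0.0906 kb (SE, limma adjusted p = 1.31e-07). Of 17 tested genes of antigen presentation 12 were longer for H3K4me3 and 1, Cd74, for H3K27ac, and after quantile normalization 7 and 4. Among 7 tested genes of border-associated macrophages 4 were longer for H3K4me3, of which Maf, described above, had the largest difference, and 1 for H3K27ac, and after quantile normalization 1 and 3. Siglec1, the 1 longer for H3K27ac, averaged 0.525 ± 0.275 kb for H3K4me3 and 1.37 ± 0.226 kb for H3K27ac (SD, n = 4 each).

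Developmental regulators had H3K4me3 alone or no peak at most of their ends, and none had both marks in all libraries. Of 40 developmental transcription factors 24 had H3K4me3 alone, 3 were mixed and 13 had no peak in any library. Of 39 Hox genes 19 had H3K4me3 alone, 10 were mixed and 10 had no peak, where 10.2% of all genes had H3K4me3 alone and 41.2% both marks. Neighbouring Hox genes share windows, so these genes are not independent. Irx5, an Iroquois homeobox factor (chr8:92357796-92361456), had 6.18, 5.95, 6.22 and 6.03 kb in the H3K4me3 libraries, against 0.88, 0.879, 1.03 and 0.873 kb in the H3K27ac libraries. No library overlapped, and the difference was 5.18 ± 0.0768 kb (SE, limma adjusted p = 7.10e-09). Sp9, a factor of forebrain interneurons, had 4.25, 4.26, 4.24 and 4.0 kb in the H3K4me3 libraries, against 0, 0, 0 and 0 kb in the H3K27ac libraries. Hoxb8, a homeobox gene of the posterior axis, had 2.18, 2.31, 2.37 and 2.45 kb in the H3K4me3 libraries, against 0, 0, 0 and 0 kb in the H3K27ac libraries. Neither Sp9 nor Hoxb8 had any H3K27ac peak in its window in any library. Of the tested members, 30 of 31 developmental factors and 31 of 33 Hox genes were longer for H3K4me3 and none for H3K27ac, while after quantile normalization 23 and 18 were longer for H3K4me3 and 4 and 6 for H3K27ac. All genes tested had 79.1% longer for H3K4me3 and 4.94% for H3K27ac, and 28% and 34.1% after quantile normalization.

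Other genes with the largest excess of H3K4me3 included regulators outside these lists. Zfp503, a zinc finger repressor (chr14:21983959-21989601), had 5.67, 6.0, 5.97 and 5.86 kb in the H3K4me3 libraries, against 0.342, 0, 0 and 0.29 kb in the H3K27ac libraries, a difference of 5.72 ± 0.111 kb (SE, limma adjusted p = 9.75e-09) that was the largest under the naming rule. Adm had 4.31, 4.34, 4.47 and 4.08 kb in the H3K4me3 libraries, against 0, 0, 0 and 0 kb in the H3K27ac libraries, and the H3K4me3 stretch takes in the promoter printed above. Hs3st3b1, an enzyme that sulfates heparan sulfate, had 4.36, 4.01, 4.33 and 4.16 kb in the H3K4me3 libraries, against 0.148, 0, 0 and 0 kb in the H3K27ac libraries. Irf2bp2, a corepressor that partners Irf2, differed by 4.26 ± 0.17 kb (SE, limma adjusted p = 1.61e-07) and Hes7, a repressor of the somite clock whose window holds Aloxe3, by 4.21 ± 0.311 kb (SE, limma adjusted p = 4.12e-06). In contrast to Adm and Hs3st3b1, Irf2bp2 and Hes7 carried both marks in every library, and averaged 8.35 ± 0.156 kb for H3K4me3 and 4.09 ± 0.349 kb for H3K27ac at Irf2bp2 and 7.99 ± 0.27 kb for H3K4me3 and 3.78 ± 0.663 kb for H3K27ac at Hes7 (SD, n = 4 each). Ankrd34a averaged 4.42 ± 0.0949 kb for H3K4me3 and 0.770 ± 0.36 kb for H3K27ac (SD, n = 4 each), and its H3K27ac lay in the window but not within 1 kb of the gene ends.

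The tested genes of other brain and blood cells were mostly longer for H3K4me3, as were 79.1% of all genes tested. Of 14 neuronal genes 5 had H3K4me3 alone, 0 both marks and 7 no peak. Of all genes 10.2% had H3K4me3 alone, 41.2% both marks and 36.0% no peak, and each list here is short. H3K4me3 alone and both marks stood at 3 and 1 of 11 astrocyte genes and at 2 and 3 of 13 of the oligodendrocyte lineage. They stood at 2 and 2 of 10 endothelial and mural genes and at 1 and 1 of 10 of lymphocytes and neutrophils. Slc17a7, the vesicular glutamate transporter of excitatory neurons, had 0.619, 1.76, 1.16 and 1.3 kb in the H3K4me3 libraries, against 0, 0, 0 and 0 kb in the H3K27ac libraries, but its window also holds Gfy, Pih1d1 and Pth2. Fgfr3, a growth factor receptor of astrocytes, had 2.24, 2.39, 2.35 and 2.32 kb of H3K4me3 and no H3K27ac in any library, in a window that also holds Letm1. Olig2, a transcription factor of the oligodendrocyte lineage, had 1.24, 1.38, 1.68 and 1.45 kb of H3K4me3 and again no H3K27ac. Flt1, an endothelial receptor for VEGF, averaged 1.92 ± 0.137 kb for H3K4me3 and 0.081 ± 0.0935 kb for H3K27ac (SD, n = 4 each). These 4 genes had H3K4me3 alone at their ends in every library. Mog, a myelin gene whose window holds Zfp57, was longer for H3K27ac, averaging 0.364 ± 0.0113 kb for H3K4me3 and 0.755 ± 0.117 kb for H3K27ac (SD, n = 4 each). Cd4, a lymphocyte marker, averaged 1.03 ± 0.103 kb for H3K4me3 and 0.381 ± 0.367 kb for H3K27ac (SD, n = 4 each), a difference of 0.651 ± 0.17 kb (SE, limma adjusted p = 0.00659) that was -0.216 kb (limma adjusted p = 0.285) after quantile normalization. The calls longer for H3K4me3 and for H3K27ac were 5 and 0 of 6 tested genes of neurons, 4 and 0 of 6 of astrocytes, 5 and 1 of 7 of the oligodendrocyte lineage, 5 and 0 of 8 of endothelial and mural cells and 3 and 0 of 5 of lymphocytes and neutrophils. After quantile normalization they were 2 and 1 for neurons, 3 and 3 for astrocytes, 2 and 2 for the oligodendrocyte lineage, 1 and 5 for endothelial and mural cells and 0 and 4 for lymphocytes and neutrophils. The part of other cell types in these values was not tested. Over all genes tested the shares of calls were 79.1% and 4.94%, and 28% and 34.1% after quantile normalization.

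**Figure D4:**
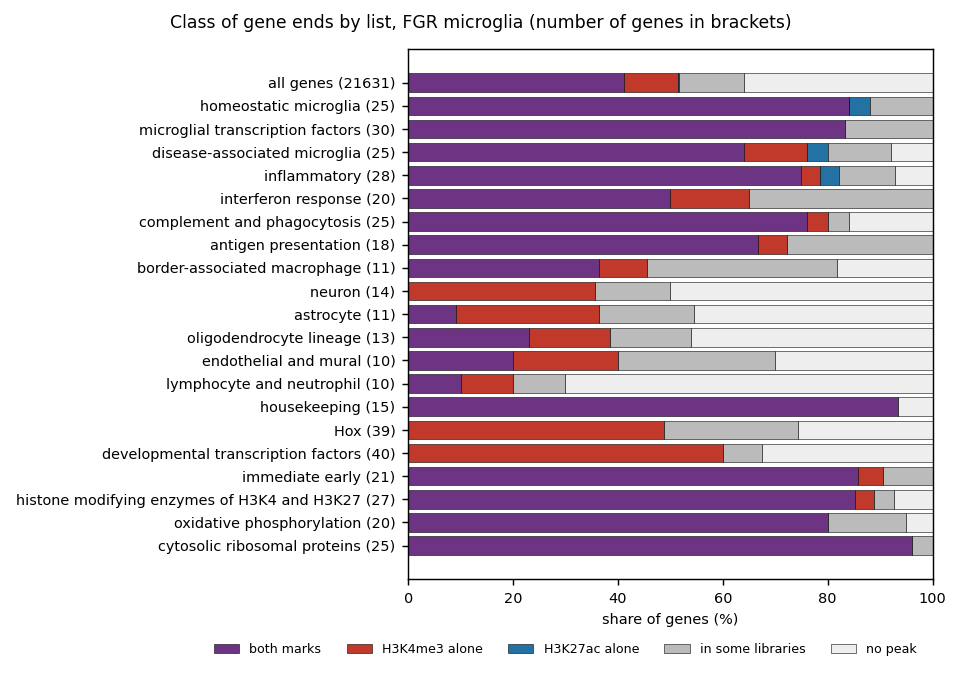
Share of the genes of each list (percent, number of genes in brackets) by class of gene end in the 8 libraries. Both marks fill 84% of homeostatic genes and 96% of cytosolic ribosomal protein genes, whereas developmental transcription factors have H3K4me3 alone at 60% and both marks at 0%.

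Early response genes and the enzymes that write and erase these marks were mostly longer for H3K4me3, as were 79.1% of all genes tested. Egr3, an early growth response factor, had 3.22, 4.03, 3.48 and 3.46 kb in the H3K4me3 libraries, against 0, 0, 0.234 and 0 kb in the H3K27ac libraries, with 1 H3K27ac library above 0 and a difference of 3.49 ± 0.161 kb (SE, limma adjusted p = 3.20e-07). Nr4a1, a nuclear receptor induced by many stimuli, was the 1 early response gene longer for H3K27ac on the deposited scale, averaging 0.465 ± 0.0516 kb for H3K4me3 and 1.43 ± 0.501 kb for H3K27ac (SD, n = 4 each), though within 1 kb of its ends the difference was 0.10 kb. Of 21 early response genes 17 were longer for H3K4me3 and 1 for H3K27ac, and after quantile normalization 15 and 3. Kmt2a, which encodes the H3K4 methyltransferase MLL1, had 3.72, 3.96, 3.54 and 3.6 kb in the H3K4me3 libraries, against 0.148, 0.63, 0.22 and 0 kb in the H3K27ac libraries. Every H3K4me3 library lay far above every H3K27ac library there, by 3.46 ± 0.148 kb (SE, limma adjusted p = 2.20e-07). Of 25 tested writers and erasers of H3K4 and H3K27 marks 24 were longer for H3K4me3 and 0 for H3K27ac, and after quantile normalization 13 and 3. Beside both lists stand 79.1% and 4.94% of all genes tested, and 28% and 34.1% after quantile normalization.

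Most genes that every cell uses carried both marks. Actb, cytoplasmic actin, had 7.5, 7.64, 7.29 and 7.14 kb in the H3K4me3 libraries, against 4.34, 5.75, 4.29 and 3.7 kb in the H3K27ac libraries, a difference of 2.87 ± 0.389 kb (SE, limma adjusted p = 1.58e-04). Gapdh, a glycolytic enzyme, had 3.03, 3.09, 3.26 and 3.16 kb in the H3K4me3 libraries, against 2.73, 2.61, 2.24 and 2.3 kb in the H3K27ac libraries; the difference was 0.666 ± 0.118 kb (SE, limma adjusted p = 7.86e-04) and -0.0311 kb (limma adjusted p = 0.815) after quantile normalization. Rpl7, a ribosomal protein, averaged 3.57 ± 0.0694 kb for H3K4me3 and 1.86 ± 0.308 kb for H3K27ac, and Ndufa1, a subunit of respiratory complex I, averaged 2.04 ± 0.0874 kb for H3K4me3 and 0.0372 ± 0.0745 kb for H3K27ac (SD, n = 4 each). Sdhc, a subunit of complex II, was longer for H3K27ac, averaging 1.5 ± 0.058 kb for H3K4me3 and 3.85 ± 0.213 kb for H3K27ac, in a window that other genes share. Rpl10a and Gusb were likewise longer for H3K27ac, with differences of -0.58 ± 0.14 kb (SE, limma adjusted p = 0.00435) and -0.848 ± 0.0842 kb (SE, limma adjusted p = 2.36e-05), and both share their windows with neighbours. Both marks were present in all libraries at 24 of 25 cytosolic ribosomal protein genes, 16 of 20 genes of oxidative phosphorylation and 14 of 15 housekeeping genes, against 41.2% of all genes. After quantile normalization the calls longer for H3K4me3 and for H3K27ac were 7 and 8, 4 and 6, and 4 and 2 in these lists, against 24 and 1, 17 and 1, and 13 and 1 before it. The shares of all genes tested were 28% and 34.1% after quantile normalization and 79.1% and 4.94% before it.

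Of the 8 genes named for the largest excess of H3K27ac, 5 share a window with a neighbour. All 8 were taken from called genes without overlap, so those properties came with the choice. BC049352 (chr9:45195688-45251370), whose window also holds Il10ra, the receptor of interleukin-10, had 0.461, 0.29, 0.727 and 0.164 kb in the H3K4me3 libraries, against 4.51, 5.21, 4.15 and 4.29 kb in the H3K27ac libraries. No library overlapped, with a difference of -4.13 ± 0.231 kb (SE, limma adjusted p = 8.59e-07). Nek6, a mitotic kinase in a window with the proteasome gene Psmb7, had 0.598, 1.6, 1.41 and 0.863 kb in the H3K4me3 libraries, against 5.0, 4.57, 4.58 and 4.81 kb in the H3K27ac libraries. Sirpa, an inhibitory receptor that binds CD47 and shares no window, had 1.49, 2.4, 1.98 and 1.36 kb in the H3K4me3 libraries, against 5.18, 5.08, 5.44 and 4.12 kb in the H3K27ac libraries. All H3K27ac values lay above all H3K4me3 values at both genes, and the differences were -3.62 ± 0.223 kb (SE, limma adjusted p = 1.46e-06) at Nek6 and -3.15 ± 0.326 kb (SE, limma adjusted p = 3.04e-05) at Sirpa. Cyren, a regulator of DNA end joining, and Dnajc18, a co-chaperone, also differed without overlap, with differences of -3.33 ± 0.401 kb (SE, limma adjusted p = 7.64e-05) and -3.21 ± 0.147 kb (SE, limma adjusted p = 3.13e-07). Pirb had 0 kb of H3K4me3 in all 4 libraries and 1.349, 0.947, 0.999 and 0.961 kb of H3K27ac. Among the 3 longest regions at gene ends with H3K27ac alone were chr2:30446502-30448554 at Ptpa, with 1.649, 1.773, 1.694 and 1.636 kb of H3K27ac, and chr15:99317115-99319012 at Fmnl3, with 1.585, 0.852, 1.393 and 0.654 kb.

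Away from gene ends, the peaks of the 8 libraries merged into 81947 distal regions, of which 10571 (12.9%) had both marks in all libraries, 4203 (5.13%) H3K4me3 alone and 4686 (5.72%) H3K27ac alone. The remaining 62487 had a peak in some libraries. Lists cut to the same number of peaks left 8508 with both marks, 5509 with H3K4me3 alone and 2101 with H3K27ac alone, so that which mark was more often alone depends on list length. Where a library had to cover 50% of a region to count, 2074 had both marks, 5351 H3K4me3 alone and 5291 H3K27ac alone. Median width was 1524 bp with both marks, 565 bp with H3K4me3 alone and 680 bp with H3K27ac alone. An annotated start of another transcript, coding or not, lay within 1 kb of 12.9% of the regions with both marks, 13.7% of those with H3K4me3 alone and 2.33% of those with H3K27ac alone. Gene bodies were touched by 61.4%, 45.8% and 66.1% of the 3 classes. The class with H3K4me3 alone was thus the narrowest and lay least often inside genes.

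The 3 longest distal regions with both marks lay near Ccr1, Sall1 and Cttnbp2nl. The longest, at chr9:123923103-123937766 and 24359 bp from Ccr1, a chemokine receptor, had 6.01, 5.61, 5.94 and 4.8 kb in the H3K4me3 libraries, against 13.1, 13.8, 13.7 and 12.5 kb in the H3K27ac libraries. The second, at chr8:89384732-89399379 and 340569 bp from Sall1, had 0.757, 1.26, 0.775 and 0.934 kb in the H3K4me3 libraries, against 13.8, 13.8, 14 and 13.4 kb in the H3K27ac libraries. Both marks were thus called in each library there, with H3K27ac over far more of the region. The third, chr3:105034554-105046932 inside Cttnbp2nl, had 8.99, 8.98, 9.71 and 9.3 kb in the H3K4me3 libraries, against 11.2, 10.6, 11.6 and 9.87 kb in the H3K27ac libraries. Distal regions with H3K27ac alone reached 3961 bp at chr7:101071692-101075652 near Fchsd2, 3699 bp at chr2:167759133-167762831 near Cebpb, a C/EBP factor of myeloid cells, and 3553 bp at chr8:89180288-89183840 near Sall1. The region near Cebpb had 0 kb of H3K4me3 in each library and 3.116, 3.625, 3.23 and 3.275 kb of H3K27ac. With H3K4me3 alone the longest were chr2:57114082-57117934 inside Nr4a2, an orphan nuclear receptor, chr2:10371990-10375495 inside Sfmbt2, a Polycomb group gene, and chr2:105673567-105676862 inside Pax6, a homeobox factor of eye and brain. The region inside Pax6 had 3.031, 3.229, 3.296 and 3.209 kb of H3K4me3 and 0 kb of H3K27ac in each library.

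By nearest gene, the lists differed in which mark was alone in distal regions. Of 157 distal regions nearest to developmental transcription factors 58 (36.9%) had H3K4me3 alone and 1 (0.637%) H3K27ac alone. Of 43 nearest to Hox genes 23 (53.5%) had H3K4me3 alone and 0 had H3K27ac alone. In contrast, of 659 nearest to homeostatic genes 3 (0.455%) had H3K4me3 alone and 54 (8.19%) H3K27ac alone, against 5.13% and 5.72% of all distal regions. Of 1047 nearest to microglial transcription factors the numbers were 24 (2.29%) and 77 (7.35%). Sall1 was the nearest gene of 114 regions, of which 13 had both marks, 2 H3K4me3 alone and 14 H3K27ac alone. Regions near 1 gene share that gene and its neighbourhood, so no test is given.

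The strength of peaks, by the authors' fold and by rank within each list, differed between gene ends and distal regions for H3K4me3. For H3K27ac both measures were too coarse to show a small difference between these places. In gene ends with both marks the median H3K4me3 peak had a fold of 23.2 to 24.9 and stood at the 82.4th to 84.6th percentile of its own list. In distal regions with both marks it had a fold of 7.4 to 7.86 and stood at the 40.9th to 45.8th percentile. For H3K27ac the median peak had a fold of 7.16 to 7.93 and stood at the 62.1st to 73.5th percentile in both places. Within each H3K27ac library these medians were the same value in both places, so they are ties. The median summit pileup of the H3K27ac libraries was 8 to 10 reads. Where a mark was alone its peaks were weaker at gene ends, with folds of 11.3 to 12.9 for H3K4me3 and 5.37 to 5.84 for H3K27ac. In distal regions H3K4me3 peaks were stronger where the mark was alone, with a fold of 8.08 to 9.24. Libraries of H3K4me3 shared 72.1 to 83.2% of the bases under peaks of either library of a pair, those of H3K27ac 50.5 to 69.1%, and pairs of 1 library of each mark 32.6 to 35.8%.

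Libraries that played no part in setting the classes followed them in part. Peaks of Ctrl H3K27ac lay at 98.8 to 99.1% of distal regions with both marks, 6.9 to 8.57% of those with H3K4me3 alone and 93.8 to 94.9% of those with H3K27ac alone. They lay at 51.5 to 53.2% of all distal regions. Peaks of Ctrl H3K4me3 lay at 24.6 to 30.1%, 17.2 to 20.3% and 0.064 to 0.171% of these classes, against 5.03 to 6.11% of all distal regions. The acetylated classes were thus found again in all 4 Ctrl H3K27ac libraries, while Ctrl H3K4me3, whose lists are shorter, held at most 30.1% of any of these classes. At gene ends Ctrl H3K4me3 had a peak at 88.1 to 90.9% of genes with both marks, 43.4 to 49% of those with H3K4me3 alone and 0% of those with H3K27ac alone. It had one at 46.2 to 48.1% of all genes, so the class with H3K4me3 alone did not stand apart there. FGR H3K9ac, an acetylation of starts and enhancers, had a peak at 97.7 to 98.5%, 84.9 to 92.2% and 30.5 to 57.6% of these gene classes. Its share over all genes was 61.3 to 66.9%. In distal regions FGR H3K9ac lay at 56.4 to 67% of those with both marks, 42.5 to 53.2% with H3K4me3 alone and 18.4 to 28.5% with H3K27ac alone. Its share over all distal regions was 18.9 to 26.2%. Ctrl H3K9ac gave another order, with 95.1 to 95.8%, 28.8 to 33% and 52.9 to 57.5%, against 32.1 to 35% of all distal regions. H3K9ac thus lay more often with H3K4me3 alone in FGR and more often with H3K27ac alone in Ctrl. FGR H3K9me3, a mark of heterochromatin, lay at no more than 2.57% of any of these distal classes in any library. It lay at 0.558 to 0.747% with both marks, 1.31 to 2.57% with H3K4me3 alone and 0.064 to 0.32% with H3K27ac alone. Its share over all distal regions was 0.318 to 0.594%, below that with H3K4me3 alone. Ctrl H3K9me3 reached more of each class in replicates 1 to 3, at 10.9 to 17.5% of distal regions with both marks, 3.59 to 5.85% with H3K4me3 alone and 9.52 to 15.9% with H3K27ac alone, against 6.6 to 11.1% of all distal regions. Its replicate 4 lay at no more than 0.35% of any class.

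**Figure D5:**
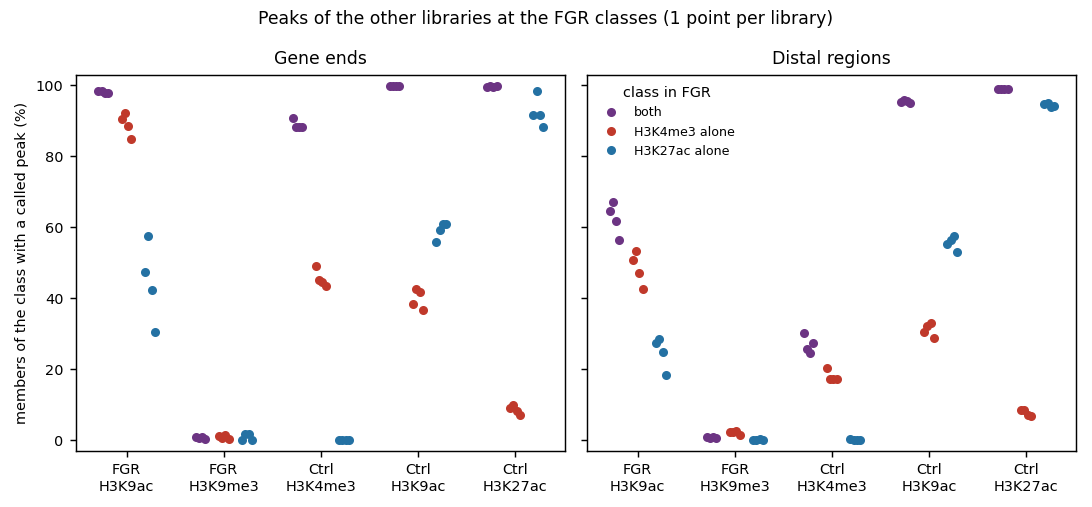
Percent of the gene ends (left) and distal regions (right) of each FGR class with a called peak, 1 point per library of the groups on the horizontal axis. Ctrl H3K27ac marks 93.8 to 94.9% of distal regions with H3K27ac alone and 6.9 to 8.57% of those with H3K4me3 alone, and Ctrl H3K4me3 marks at most 0.171% of the distal regions with H3K27ac alone.

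Because of the doubt about labels, the classes were also set with the FGR H3K9ac libraries in place of those labelled H3K4me3, whose smallest peak width differs. Gene ends with both marks then numbered 8710, of which 8655 were among the 8915 above. Gene ends with the replacing mark alone numbered 2324, of which 1758 were among the 2205, and those with H3K27ac alone 142, of which 17 were among the 59. Of developmental transcription factors 20 had the replacing mark alone and 0 both, and of Hox genes 15 and 0. Both marks stood at 20 of 25 homeostatic and 24 of 25 cytosolic ribosomal protein genes, against 21 and 24 above. Other lists moved more, with both marks at 17 inflammatory and 6 interferon response genes, against 21 and 10 above. H3K27ac alone stood at 4 and 2 genes of these last lists, against 1 and 0 above. Distal regions changed more, with 6644 for both marks, 8498 for the replacing mark alone and 7959 for H3K27ac alone.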

How the data were processed

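The files were peak lists in MACS2 narrow layout, 1 per library. Per the submitters' processing notes, which give no roles, the build was mm10 and the tools were DiffBind 3.12.0, MACS2 2.2.7.1, SAMtools 1.3.1, Bowtie2 2.4.5 and Trim Galore 0.6.5. Each deposited peak carries a score, a fold (ratio over background), −log10 p-value and −log10 q-value made by the authors. The lowest −log10 q was 1.309 to 1.413. Its control library and its options were not given in the sources used here.

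Autosomes and X were used. Genes were the 21631 protein-coding genes in RefSeq's GRCm38.p6, from which mm10 derives; strand came from the promoter table for 17274 of them. Peaks within a library were merged. Covered length was tested with limma 3.58.1 (lmFit, eBayes, two-sided) under R 4.3.3, Benjamini-Hochberg adjustment running over 14323 genes and a threshold of 0.05. In data made from the H3K4me3 and H3K27ac lengths of these genes with 200 shifted by 1 kb, 186 were recovered with 11 false calls. Those data were normal noise around each gene's mean over the 8 libraries, with SDs of at least the median SD. They lack the zeros of the real lengths and shift far fewer genes, so they give no rate of false calls for the real fit. Library measures had two-sided exact permutation tests. Classes were counted with no test. Regions are peaks of the 8 libraries merged on any overlap. For lists matched on background, each summit pileup and background was scaled to the lowest median background, 0.621, and peaks kept past a −log10 p of 3.093. Python 3.11.15, numpy 2.4.6, pandas 2.3.3 and scipy 1.17.1 were used.

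Named genes were the 8 largest differences per direction among called genes whose libraries do not overlap, 16 fixed genes, and the member of each list with the largest called difference per direction; some genes that the rule names are not reported here. Members, lists and rules were chosen with earlier results of these data known. Peaks called exactly alike made up at most 0.353% of a list between replicates, so all were counted as separate. Replicate numbers occur in both groups, but same-numbered deviations correlated at -0.0261 to 0.0768, so the numbers were not taken to pair the libraries. Alternatives were equal list lengths, a −log10 q of at least 3, matched background, quantile normalization, a 1 kb window, the 5′ end alone, a peak in any library, other region rules, a replicate block, leaving out each library and, added after seeing the data, FGR H3K9ac in place of FGR H3K4me3.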

Additional observations from a re-analysis of the deposited data

Results flagged for a closer look

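In 120 groups of 4 libraries, 7 single libraries stood apart from the other 3 by the gap between them relative to the range of the group, and chance alone gives about 1 in 20. For H3K4me3, Sp9 had 4.005 kb in replicate 4 against 4.235 to 4.261 kb in the other 3, Il1b had 0.148 kb in replicate 3 against 0 kb, and Fcgr3 had 4.098 kb in replicate 2 against 3.386 to 3.485 kb. For H3K27ac, Irx5 had 1.029 kb in replicate 3 against 0.873 to 0.880 kb in the other 3. Hs3st3b1 had 0.148 kb of H3K27ac in replicate 1, Egr3 had 0.234 kb in replicate 3 and Ndufa1 had 0.149 kb in replicate 3, each against 0 kb in the other 3. The values of 0.148 and 0.149 kb are as long as the narrowest peaks of these lists, which measure 148 to 151 bp.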

How the results depend on the processing

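After quantile normalization 4015 genes were longer for H3K4me3 and 4890 for H3K27ac, against 11333 and 707, because this scaling removes the general excess of H3K4me3. With lists of equal length covered genome differed by 0.31 (log2), past the threshold, gene ends with H3K27ac alone numbered 25 and distal regions with H3K27ac alone 2101. With the 5′ end alone, 358 genes were longer for H3K27ac and 26 gene ends had H3K27ac alone. Requiring each mark to cover 50% of a region left 2074 distal regions with both marks. With FGR H3K9ac in place of FGR H3K4me3, chosen after seeing the data, 1634 genes were longer for H3K27ac, 142 gene ends had H3K27ac alone, and distal regions numbered 6644, 8498 and 7959 for both marks, the replacing mark alone and H3K27ac alone.

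Leaving out 1 library gave log2 differences of -0.61 to -0.43 for peaks and -0.64 to -0.50 for distal length, with p of 0.0571 without any 1 H3K4me3 library. Covered genome then differed by -0.01 to 0.12, peak width by 197 to 214 bp, calls numbered 10846 to 11388 and 583 to 779, and gene ends with H3K27ac alone 62 to 78. Differences called in the report or under the alternative changed sign at P2ry12 (-0.67 kb), Gapdh (-0.031 kb) and Cd4 (-0.22 kb) after quantile normalization, at Cx3cr1 (1.06 kb) with the 5′ end alone, and at Spi1 (0.035 kb), Apoe (-0.21 kb) and Nr4a1 (0.10 kb) with a window of 1 kb; the cause was not tested. Uncalled differences changed sign at Tyrobp (-0.19 kb) after quantile normalization, at P2ry12 (-0.0335 kb) with the 5′ end alone and at Trem2 (0.12 kb) with lists of equal length. Leaving out 1 library gave -0.15 to 0.22 kb at P2ry12, -0.18 to 0.024 kb at Trem2 and -0.028 to 0.32 kb at Tyrobp. A fit with the replicate block gave 11265 and 711 calls and changed no named call. Depth is unknown, so an absent peak is not an absent mark.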
